A study of Ovis aries with 12 samples.

Results

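The genes described here are 9 transcription factors of the somite and of skeletal muscle: TCF15, MEOX1, MEOX2, PAX3, PAX7, MYF5, MYOD1, MYF6 and MYOG. They were taken by symbol from a table of 26247 sheep genes, all 9 were present, and all 9 were among the 14595 genes that passed the filter on low values and were tested. The study measured bulk RNA of whole embryos from 2 Mongolian breeds of sheep (Ovis aries), with the Hulunbuir Short-tail Sheep as the experimental and the Ujumqin sheep as the control breed. Embryos were taken at 16 days and at 25 days and dissociated with enzymes before RNA extraction, and each of the 4 groups held 3 libraries. No treatment, transgene or allele is given for any group. Whether a group's 3 libraries stem from separate animals or from pooled embryos is not stated in the labels, and p-values here measure only how far these samples spread, which may be technical.

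Somites are blocks of mesoderm that form in pairs beside the neural tube and give rise to vertebrae, ribs, dermis and all skeletal muscle of the trunk and limbs. TCF15 and the MEOX factors act in the young somite, PAX3 and PAX7 keep muscle progenitors, and the 4 myogenic basic helix-loop-helix (bHLH) factors then take cells into muscle: MYF5 and MYOD1 set the muscle fate, while MYOG and, in part, MYF6 drive differentiation into fibres. PAX3 and PAX7 are also expressed in the dorsal neural tube and neural crest, so that in RNA of whole embryos their level is not that of muscle precursors alone.

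Libraries of day 16 held 43131962 to 55455815 gene counts and those of day 25 held 30464606 to 39643588. The floor of 3 counts corresponded to 0.0541 to 0.0985 CPM (counts scaled to library size), which covers counting error only. Levels are given as deposited in FPKM, a count scaled by gene length and library size, and changes as log2 ratios from counts with their standard errors (SE). Markers of other tissues differed between groups. The summed FPKM of 17 yolk sac, endoderm and liver genes was 25773 to 63328 in Ujumqin and 4574 to 13909 in Hulunbuir at day 16, and 5348 to 8209 and 20604 to 22114 at day 25. Trophoblast markers (11 genes) summed to 1575 to 3397 FPKM in Ujumqin and 1432 to 4495 FPKM in Hulunbuir at day 16, and were at or under 488 FPKM in each day 25 library. Most of the day 16 sum was KRT8, with means of 2139 FPKM in Ujumqin and 2907 FPKM in Hulunbuir. In FPKM, 2 of the 10 trophoblast genes tested were higher in Hulunbuir at day 16. Their median log2 change between breeds there was -0.93, and 0 passed. Fewer cells of a type and less RNA per cell cannot be told apart in these libraries.

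At day 25, 2 of the 9 genes were higher in Hulunbuir than in Ujumqin, PAX7 by 10.9-fold and MYF5 by 2.0-fold, against 23.3% of all genes tested that were higher there and 46.0% that passed in either direction. PAX7 passed the filter on low values only through the libraries in which it was high. From day 16 to day 25, the myogenic factors MYOD1, MYF6 and MYOG rose in both breeds from 0 or near 0. They passed that filter through day 25 libraries alone. The somite factors TCF15 and MEOX1 already had counts at day 16 in every library, as did PAX3, MEOX2 and MYF5. TCF15, MEOX1, PAX3 and MYF5 rose with age in Ujumqin, and none of them passed with age in Hulunbuir. The Ujumqin calls of TCF15, MEOX1 and PAX3 were lost on rescaled FPKM with limma. No gene of the 9 passed the test between breeds at day 16.

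**Figure D1:**
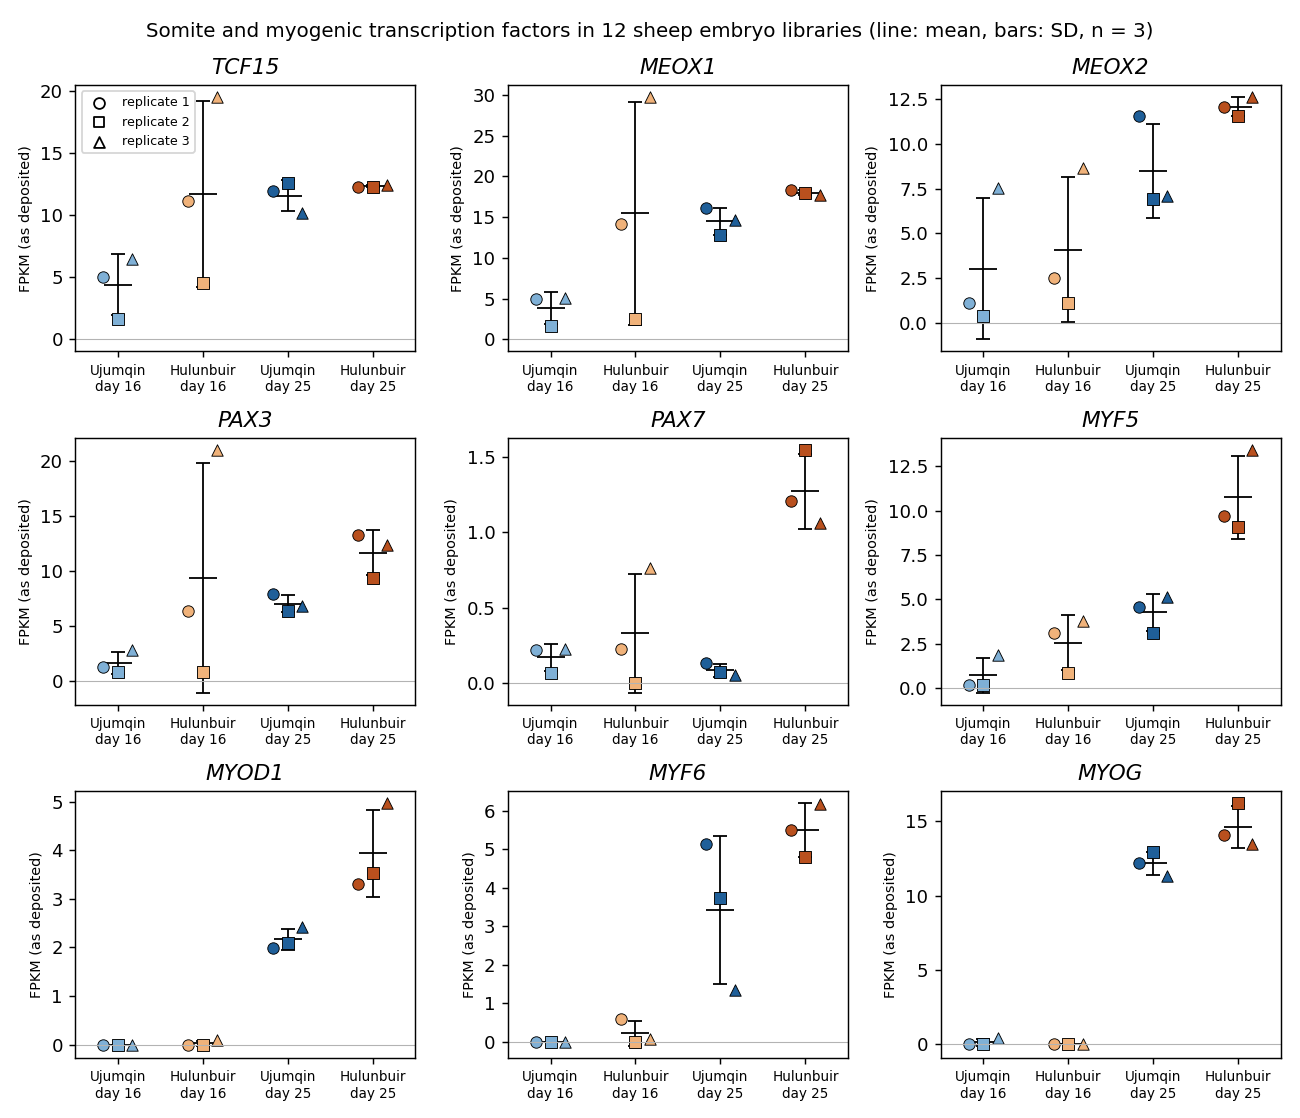
Level of each of the 9 genes in FPKM (vertical axis, its own scale in each panel) in the 12 libraries, by breed and age; points are libraries with the replicate number as their shape, lines are means and bars SD of 3. PAX7 stands between 1.06 and 1.54 FPKM in Hulunbuir at day 25 and at most at 0.764 elsewhere, while MYOD1, MYF6 and MYOG lie at or close to 0 in all day 16 libraries.

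TCF15 (paraxis, a bHLH factor needed in the mouse for somites to become epithelial; ENSOARG00000019015, chromosome 13, 59744603 to 59750158, plus strand of Oar_v3.1) had 5.06, 1.67 and 6.51 FPKM in the 3 Ujumqin libraries of day 16, in the order of their numbers. The Hulunbuir libraries of day 16 had 11.1, 4.52 and 19.5 FPKM. At day 25 TCF15 was at 11.99, 12.6 and 10.2 FPKM in Ujumqin and at 12.3, 12.3 and 12.4 FPKM in Hulunbuir. The Hulunbuir day 25 libraries were nearly equal, whereas the day 16 groups were wide and overlapped each other. TCF15 rose from day 16 to day 25 in Ujumqin by 1.55 ± 0.47 (log2, SE; adjusted p = 0.0134, quasi-likelihood test of edgeR, Benjamini-Hochberg adjusted over all genes tested), and the Hulunbuir estimate was -0.01 ± 0.46 (adjusted p = 0.988).

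MEOX1 (a homeobox factor of the somite that, in mouse, acts in sclerotome and vertebral formation; ENSOARG00000005754, chromosome 11, 42968473 to 42986641, minus strand) had 4.93, 1.60 and 5.11 FPKM in Ujumqin and 14.1, 2.49 and 29.7 FPKM in Hulunbuir at day 16. At day 25 it had 16.1, 12.8 and 14.6 FPKM in Ujumqin and 18.3, 17.9 and 17.8 FPKM in Hulunbuir. Replicate 2 was the lowest of its group at day 16 in both breeds. MEOX1 rose with age in Ujumqin by 2.05 ± 0.61 (edgeR adjusted p = 0.0123). In Hulunbuir, where the day 25 libraries lay within the day 16 range, the estimate was 0.17 (adjusted p = 0.836). When the FPKM of each library were rescaled to a common sum and tested with limma, the Ujumqin calls of TCF15 (adjusted p = 0.0619) and MEOX1 (adjusted p = 0.0561) were lost.

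MEOX2 (the related homeobox factor, active in somites and in limb muscle precursors; ENSOARG00000008280, chromosome 4, 24100798 to 24175729, minus strand) had 1.10, 0.401 and 7.56 FPKM in Ujumqin and 2.49, 1.12 and 8.68 FPKM in Hulunbuir at day 16. The day 25 values were 11.5, 6.92 and 7.06 FPKM in Ujumqin and 12.1, 11.6 and 12.6 FPKM in Hulunbuir. Replicate 3 stood far above the other 2 libraries in both day 16 groups. The age estimates of 1.67 ± 0.86 in Ujumqin (edgeR adjusted p = 0.108) and 1.51 ± 0.85 in Hulunbuir (adjusted p = 0.178) did not pass. In Ujumqin MEOX2 passed in 5 of 16 alternatives. With the replicate number as a block its log2 change was 2.43 (adjusted p = 0.0192), and without Ujumqin day 16 replicate 3 it was 3.58 (adjusted p = 0.00161). The other 3 were voom (adjusted p = 0.0135) and limma on log2 FPKM with either pseudocount (0.0369 and 0.0346).

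The MEOX1 to MEOX2 ratio of FPKM was 4.48, 3.99 and 0.68 in Ujumqin and 5.66, 2.23 and 3.42 in Hulunbuir at day 16. At day 25 it was 1.39, 1.84 and 2.06 in Ujumqin and 1.52, 1.55 and 1.41 in Hulunbuir. MEOX1 therefore exceeded MEOX2 in 11 of 12 libraries, the exception being Ujumqin day 16 replicate 3. The MEOX1 to TCF15 ratio varied less, from 0.55 to 1.52 over the 12 libraries.

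PAX3 (a paired box factor of the dermomyotome, of migrating limb muscle precursors and of the dorsal neural tube; ENSOARG00000020289, chromosome 2, 223366247 to 223467926, minus strand) had 1.28, 0.804 and 2.79 FPKM in Ujumqin at day 16. The Hulunbuir day 16 libraries had 6.37, 0.760 and 20.9503 FPKM, so the highest held 27.6 times the lowest, the widest gap of a member within a group among those above 0 in each library. At day 25 PAX3 had 7.86, 6.34 and 6.82 FPKM in Ujumqin and 13.3, 9.33 and 12.3 FPKM in Hulunbuir. The 2 breeds overlapped at day 16 and stood apart in FPKM at day 25.

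PAX3 rose with age in Ujumqin by 2.27 ± 0.78 (edgeR adjusted p = 0.0239). That call was lost when any of 4 libraries was left out: Ujumqin day 16 replicate 1 (adjusted p = 0.0772) or 2 (0.0743), or Ujumqin day 25 replicate 1 (0.0533) or 3 (0.0514). It was also lost on rescaled FPKM with limma (adjusted p = 0.0923). The Hulunbuir age estimate was 0.29 (adjusted p = 0.775). Between breeds at day 25 the PAX3 estimate was 0.41 ± 0.15 (adjusted p = 0.0518), just outside the threshold, and with the replicate number as a block it passed (adjusted p = 0.0433).

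PAX7 (the paired box factor of later muscle progenitors and, in adult muscle, of satellite cells; ENSOARG00000010587, chromosome 2, 246755807 to 246864318, minus strand) was the lowest of the 9 genes at day 25. It had 8, 4 and 3 counts in the Ujumqin day 25 libraries, or 0.133, 0.0698 and 0.0505 FPKM, and 81, 85 and 65 counts in the Hulunbuir day 25 libraries, or 1.21, 1.54 and 1.06 FPKM. Day 16 counts were 18, 6 and 21 in Ujumqin and 19, 0 and 56 in Hulunbuir. All 3 Hulunbuir day 25 libraries stood above the other 9.

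At day 25 PAX7 was higher in Hulunbuir by 3.44 ± 0.49 (log2, edgeR adjusted p = 0.000761), and it passed in each of the 16 alternatives run. PAX7 was tested at all only because the 3 Hulunbuir day 25 libraries reached 1 FPKM, so it had to differ in that comparison. Without a filter on low values its adjusted p was 0.000797. A rise with age in Hulunbuir was favoured by the filter in the same way. The age estimates of -0.78 in Ujumqin (adjusted p = 0.534) and 1.92 in Hulunbuir (adjusted p = 0.13) did not pass. The latter passed in 5 of 16 alternatives, which were the 3 limma settings (lowest adjusted p = 0.00879), voom (0.0392) and the fit without Hulunbuir day 16 replicate 3 (3.26, adjusted p = 0.0342).

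Of 15 dorsal neural tube and neural crest genes tested, which share tissues with PAX3 and PAX7, 6 were higher and 1 lower in Hulunbuir at day 25, against 23.3% higher and 22.7% lower of all genes, with a median log2 change of 0.63. WNT1, a signal of the dorsal midline, was the most raised, at 1.49 ± 0.30 (edgeR adjusted p = 0.00399). SOX10, a neural crest factor named after its value was seen, was higher by 1.21 ± 0.19 (adjusted p = 0.00144). The 1 lower gene was TFAP2A, at -0.70 ± 0.25 (edgeR adjusted p = 0.0468). ZIC1, the most abundant that did not pass, had an estimate of 0.10 ± 0.15 (adjusted p = 0.591). Their summed FPKM was 103 to 131 in Ujumqin and 170 to 182 in Hulunbuir, and none of the 15 was at 0. Their part in the PAX7 and PAX3 values was not tested.

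MYF5 (the myogenic factor that appears first in the mouse myotome; ENSOARG00000015159, chromosome 3, 116620277 to 116622399, plus strand) had 0.201, 0.158 and 1.88 FPKM in Ujumqin and 3.11, 0.836 and 3.77 FPKM in Hulunbuir at day 16. At day 25 it had 4.56, 3.09 and 5.15 FPKM in Ujumqin and 9.72, 9.10 and 13.4 FPKM in Hulunbuir. In counts these were 144, 91 and 166 against 370, 285 and 471. Each Hulunbuir day 25 library stood above every other library, and each Ujumqin day 25 library above its own breed's day 16 values.

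MYF5 was higher in Hulunbuir at day 25 by 0.997 ± 0.24 (edgeR adjusted p = 0.00969). The call held in 15 of 16 alternatives and was lost when all 12 libraries shared 1 estimate of spread (0.96, adjusted p = 0.396). MYF5 rose with age in Ujumqin by 2.68 ± 0.78 (adjusted p = 0.0111). The Hulunbuir age estimate of 1.97 ± 0.75 lay just outside the threshold (adjusted p = 0.0557) and passed in 7 of 16 alternatives, among them a fit of the 6 Hulunbuir libraries alone (adjusted p = 0.0164) and the block by replicate number (adjusted p = 0.0201).

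MYF6 (MRF4, a myogenic factor of early and of maturing muscle; ENSOARG00000015145, chromosome 3, 116604900 to 116606136, plus strand) lies next to MYF5 on the same strand, 14.1 kb before its start. It had 0 counts in the 3 Ujumqin day 16 libraries and 24, 0 and 3 counts in the Hulunbuir ones. At day 25 MYF6 had 5.14, 3.74 and 1.34 FPKM in Ujumqin and 5.51, 4.80 and 6.19 FPKM in Hulunbuir. Ujumqin replicate 3 was the low library at day 25, although it was the highest of its group for MYF5. MYF6 rose with age in Ujumqin (edgeR adjusted p = 6e-04), where the mean CPM was at least 50.1-fold higher than a floor of 3 counts per library. In Hulunbuir it rose by 4.39 ± 1.04 (adjusted p = 0.00888), and the breed estimate at day 25 was 0.38 ± 0.40 (adjusted p = 0.469).

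MYOD1 (the other factor that sets muscle fate; ENSOARG00000025174, chromosome 15, 34370528 to 34371122, minus strand) has the shortest gene model of the 9, spanning 595 bases. It had 0 counts in 5 of 6 day 16 libraries and 3 counts in Hulunbuir day 16 replicate 3. At day 25 it had 1.99, 2.09 and 2.41 FPKM in Ujumqin, from 43, 42 and 53 counts, and 3.30, 3.54 and 4.97 FPKM in Hulunbuir, from 86, 76 and 119 counts. MYOD1 rose in Ujumqin to at least 26.5-fold over the floor (edgeR adjusted p = 0.000114) and in Hulunbuir (adjusted p = 0.00052) with a ratio of 106 (exact 95% interval of counting, 35.8 to 515). The breeds stood apart in FPKM at day 25, but the estimate of 0.53 ± 0.31 did not pass (adjusted p = 0.193).

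MYOG (myogenin, required in the mouse for myoblasts to differentiate into fibres; ENSOARG00000001036, chromosome 12, 196023 to 197959, minus strand) had 14 counts, or 0.394 FPKM, in Ujumqin day 16 replicate 3 and 0 counts in the other 5 libraries of that age. At day 25 it had 12.2, 12.9 and 11.3 FPKM in Ujumqin and 14.1, 16.2 and 13.5 FPKM in Hulunbuir. All day 25 libraries were thus far above all day 16 libraries. MYOG rose by 6.57 ± 0.99 in Ujumqin (edgeR adjusted p = 0.000363) and to at least 125-fold over the floor in Hulunbuir (adjusted p = 0.000399). Between breeds at day 25 the estimate was -0.07 ± 0.15 (adjusted p = 0.751), the FPKM of Hulunbuir being above those of Ujumqin in each library.

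The direction for MYOG thus differed between FPKM and the count fit. Over all genes tested, the median log2 difference between breeds at day 25 was 0.29 in FPKM and 0.03 after TMM scaling (edgeR's correction for library composition). In TMM-scaled CPM, MYOG had 8.76 ± 0.64 (SD, n = 3) in Ujumqin and 8.13 ± 0.85 in Hulunbuir. TCF15 had 8.84 ± 0.92 and 7.28 ± 0.10, and MEOX1 had 39.5 ± 3.39 and 38.1 ± 0.39. The estimates of these 3 genes between breeds at day 25 turned from negative to positive on the FPKM scale, whereas those of PAX7 and MYF5 were above that shift on both scales. On the FPKM scale 80.6% of called genes were higher in Hulunbuir, against 50.6% in the count fit.

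**Figure D2:**
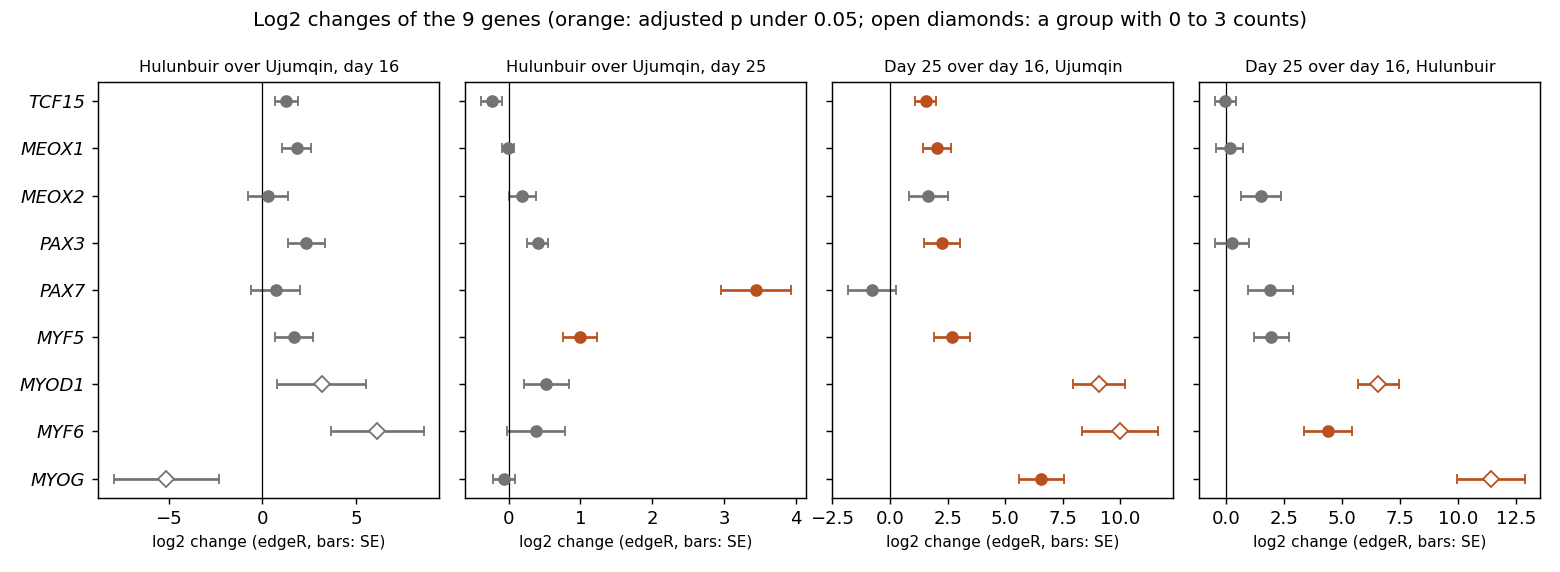
Log2 changes of the 9 genes with SE (horizontal axis, a separate scale in each panel) in the 4 comparisons between groups, from edgeR. Filled orange marks passed at an adjusted p under 0.05, and open diamonds mark a gene with 0 to 3 counts in all in one group, whose fitted size depends on the prior count. PAX7 (3.44) and MYF5 (0.997) are the only orange marks between breeds, and 7 and 3 genes are orange for age in Ujumqin and Hulunbuir.

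Between breeds at day 16, 0 of 9 genes passed, against 0.0206% of all genes tested. PAX3 (2.34 ± 0.98, edgeR adjusted p = 0.243) and MEOX1 (1.82 ± 0.77, adjusted p = 0.245) were under an unadjusted p of 0.05, and 0 of 9 passed with DESeq2, with limma, with voom or in any other of the alternatives run. Same-numbered libraries of the 2 breeds deviated together at day 16, and with the replicate number as a block 293 genes passed in place of 3, again with 0 of the 9 (lowest adjusted p of a member 0.0787). The estimates of 8 of the 9 were above 0, as were 50.9% of all genes, and the median of the 9 was 1.67 against 0.01 for all genes. The values for the other members were 1.27 ± 0.61 for TCF15 (adjusted p = 0.29), 1.67 ± 1.003 for MYF5 (0.379), 0.71 ± 1.30 for PAX7 (0.783) and 0.30 ± 1.08 for MEOX2 (0.894). MYF6, MYOD1 and MYOG had too few counts for a size to be read.

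The day 16 libraries were uneven for these genes. For the 6 members with more than 3 counts in each Ujumqin library, the highest FPKM of the group was 3.19 to 18.8 times the lowest (median 3.69), against a median of 1.58 over all genes with such counts. In Hulunbuir, 5 such members had ratios of 4.32 to 27.6 (median 7.77), against 1.74 over all genes. At day 25 the medians were 1.25 for 8 members in Ujumqin and 1.29 for 9 in Hulunbuir, close to the 1.33 and 1.17 of all genes. PAX7, which had 3 counts in 1 Ujumqin day 25 library, was left out there, and its ratio was 2.64. The highest library was replicate 3 for 7 of 7 members with a count in Ujumqin and for 7 of 8 in Hulunbuir, while replicate 3 was highest for 47.8% and 51.7% of all genes. Replicate 2 was the lowest for 6 of 7 and 7 of 8 members, against 42.2% and 51.6% of all genes. Ties were counted for the lower replicate number. The members not counted there, MYOG in Ujumqin and MYOD1 in Hulunbuir, had 0 counts in both replicate 1 and replicate 2.

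Summed over the 9 genes, FPKM was 12.8, 4.70 and 24.5 in Ujumqin and 38.02, 9.72 and 83.6 in Hulunbuir at day 16. At day 25 the sums were 71.5, 60.6 and 58.9 in Ujumqin and 89.7, 86.3 and 94.3 in Hulunbuir. Hulunbuir day 16 replicate 3 thus lay in the range of the day 25 libraries in total. Its make-up was that of a day 16 library, with MEOX1 at 35.6%, PAX3 at 25.1% and TCF15 at 23.4% of the sum, MYOD1 at 0.106% and MYOG at 0. In that library trophoblast markers summed to 1432 FPKM, the lowest of the 6 day 16 libraries, and in Ujumqin the lowest, 1575 FPKM, was also replicate 3. Dorsal neural tube and neural crest markers summed to 83.8, 28.1 and 128 FPKM in Hulunbuir, in the same order as the 9 genes, and to 63.0, 64.9 and 64.04 FPKM in Ujumqin. ETS1 and TFAP2A had the highest means of that list in Ujumqin at day 16, 34.6 and 15.8 FPKM. As a mean of log2(FPKM + 1), the list stood at 1.42, 1.13 and 1.40 in Ujumqin, lowest in replicate 2. In Hulunbuir that mean was 1.94, 0.839 and 2.51. Yolk sac, endoderm and liver markers were highest in replicate 3 in Ujumqin (63328 FPKM) and in replicate 2 in Hulunbuir (13909 FPKM). Red cell markers were also highest in replicate 3 in Ujumqin (4233 FPKM) and were 86.5 to 171 FPKM in Hulunbuir. The part of these markers in the spread of the 9 genes was not tested.

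**Figure D3:**
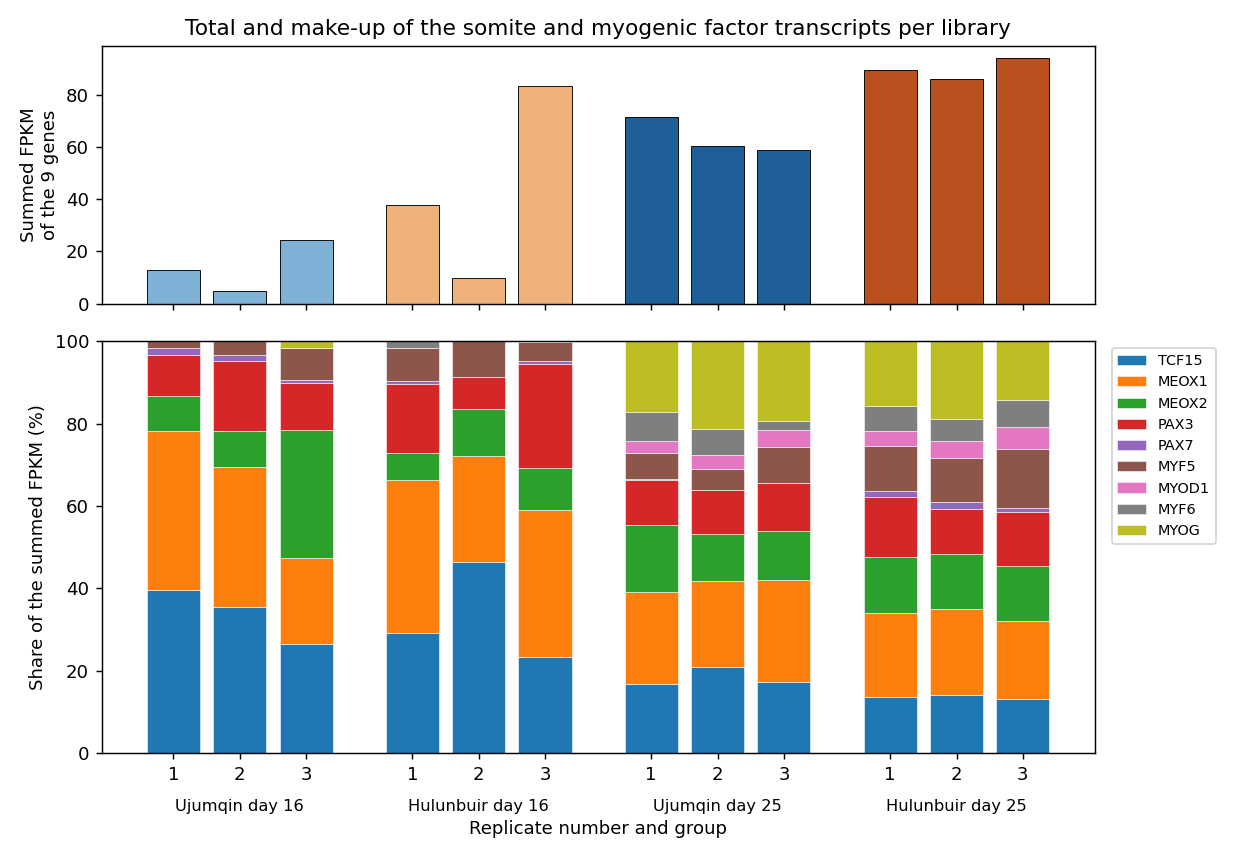
Summed FPKM of the 9 genes (upper bars) and the share of each gene in that sum in percent (lower bars) for the 12 libraries, in order of group and replicate number. MYOG takes 14.3% to 21.3% of the sum at day 25 and at most 1.61% at day 16, and the sum of Hulunbuir day 16 replicate 3 is 83.6 FPKM.

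Between breeds at day 25, 2 of the 9 genes passed, both higher in Hulunbuir, against 46.0% of all genes in either direction and 23.3% higher. The share higher among the 9 was thus near that of all genes, and the share called in either direction below it. In FPKM, 7 of the 9 (all but MYF6 and TCF15) had each Hulunbuir library above each Ujumqin library, against 49.1% of all genes. PAX7 had to be among them, since it passed the filter through the Hulunbuir day 25 libraries alone. The median log2 change was 0.38 for the 9 and 0.03 for all genes. TCF15 (-0.24 ± 0.15, edgeR adjusted p = 0.225), MEOX1 (-0.01 ± 0.09, adjusted p = 0.935) and MEOX2 (0.19 ± 0.19, adjusted p = 0.44) did not pass. Leaving out Ujumqin day 25 replicate 1 raised the count from 2 to 4 by adding PAX3 (adjusted p = 0.0343) and MEOX2 (adjusted p = 0.03).

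From day 16 to day 25 in Ujumqin, 7 of the 9 genes rose, all but PAX7 and MEOX2, against 63.6% of all genes changed and 30.7% higher. In Hulunbuir 3 of the 9 rose (MYOD1, MYF6 and MYOG), against 40.5% changed and 18.9% higher. The median log2 change of the 9 was 2.27 in Ujumqin and 1.92 in Hulunbuir, against -0.07 and -0.04 for all genes. MYOD1, MYF6 and MYOG passed the filter on low values through the day 25 libraries alone, so these 3 had to differ between ages. PAX7 passed it through the Hulunbuir day 25 libraries alone, so PAX7 had to stand above day 16 in Hulunbuir. The Hulunbuir median of 1.92 is the estimate of PAX7 itself. In FPKM each day 25 library stood above each day 16 library for 7 of the 9 in Ujumqin, against 30.9% of all genes, and for 6 in Hulunbuir (PAX7, MYF5, MYF6, MYOD1, MYOG and MEOX2), against 33.4%. Of 10 trophoblast genes tested, 8 fell with age in Ujumqin and 6 in Hulunbuir, led by CDX2, a trophectoderm factor, at -6.05 ± 1.38 (adjusted p = 0.00279) and -5.89 ± 1.32 (adjusted p = 0.00495). CDX2 passed the filter through day 16 libraries alone, so it had to differ with age. Of 17 yolk sac, endoderm and liver genes, 14 fell in Ujumqin, and 5 rose and 3 fell in Hulunbuir. The dorsal neural tube and neural crest list, which shares tissues with PAX3 and PAX7, had 10 of 15 genes higher and 1 lower with age in Ujumqin (median 2.29) and 5 higher and 1 lower in Hulunbuir (median 1.06). ATOH1, among those that rose, passed the filter through Hulunbuir day 25 libraries alone. Of 12 red cell genes, 2 rose and 6 fell in Ujumqin (median -1.21), and 11 rose and 0 fell in Hulunbuir (median 5.13). The part of these tissues in the age changes was not tested.

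Whether age acted differently in the breeds was tested with the breed by age interaction, for which 0 of 9 genes passed in edgeR, against 19.2% of all genes. The interaction was under an unadjusted p of 0.05 for 4 of them: MYF6 (-5.60 ± 2.06, adjusted p = 0.0867), TCF15 (-1.56 ± 0.65, adjusted p = 0.113), MYOG (4.84 ± 2.06, adjusted p = 0.127) and MEOX1 (-1.87 ± 0.84, adjusted p = 0.134). At day 16 MYF6 had 0 counts in Ujumqin and MYOG had 0 in Hulunbuir, too few for the size of their interaction to be read. Over the alternatives run, the interaction went from -6.10 to 0.447 for MYF6 and from -0.106 to 5.42 for MYOG. DESeq2 called MYF6 (adjusted p = 0.0186) and MYOG (adjusted p = 0.0258), and limma on log2(FPKM + 1) called PAX7 (adjusted p = 0.0463). Leaving out Hulunbuir day 16 replicate 2 made 4 genes pass, PAX3 (adjusted p = 0.0254), MYF6 (0.0339), MEOX1 (0.0143) and TCF15 (0.0463). Leaving out Ujumqin day 16 replicate 3 made MYF5 pass (-2.60, adjusted p = 0.0242). The 7 calls with age in Ujumqin and the 3 in Hulunbuir are therefore not shown to differ between breeds by the main test.

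The order of the 9 genes by median FPKM changed with age. The place of each gene in it, not of MYOD1 alone, depends on the length by which FPKM scale its counts. In Ujumqin day 25 replicate 1, MYOG had 7.85 CPM, below PAX3 at 13.1 CPM and MEOX2 at 11.6 CPM, but stood above both in FPKM. At day 16 the order in Ujumqin was TCF15, MEOX1, PAX3, MEOX2, PAX7 and MYF5, with the other 3 at a median of 0 counts. MEOX2 stood clear of PAX7, and MYF5 stood clear of MYF6 and MYOD1, both at 0 counts, but not of MYOG, which reached 0.394 FPKM in replicate 3. The other neighbours overlapped. In Hulunbuir it was MEOX1, TCF15, PAX3, MYF5, MEOX2, PAX7 and MYF6, and only MEOX2 and PAX7 were neighbours that did not overlap. At day 25 the order in Ujumqin was MEOX1, MYOG, TCF15, MEOX2, PAX3, MYF5, MYF6, MYOD1 and PAX7, where PAX3 stood clear of MYF5 and MYOD1 clear of PAX7. In Hulunbuir PAX3 followed MYOG, ahead of TCF15 and MEOX2, and the rest kept their places. There MEOX1, MYOG and the following genes down to PAX3 stood clear of each other, as did MYF5 from MYF6 and MYOD1 from PAX7, and the other neighbours overlapped.

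Around the 9 genes, regulators that act before or beside them in the myogenic pathway were also measured. The counts for this and the following lists stand beside shares of all genes tested of 23.3% higher and 22.7% lower in Hulunbuir at day 25, of 30.7% higher and 32.9% lower with age in Ujumqin, and of 18.9% higher and 21.6% lower with age in Hulunbuir. Of 11 such genes tested, 6 were higher and 3 lower in Hulunbuir at day 25 (median log2 change 0.47). TCF21, a bHLH factor of head muscle precursors, had the largest rise at 1.10 ± 0.21 (edgeR adjusted p = 0.00339). EYA2, a transcriptional cofactor that acts upstream of MYF5 and MYOD1, was named after its value was seen, and was higher by 0.44 ± 0.11 (adjusted p = 0.0114). With age in Ujumqin 5 of the 11 rose and 3 fell, and in Hulunbuir 1 rose (EYA2, 2.23 ± 0.44, adjusted p = 0.00249) and 1 fell (SIX4, -1.18 ± 0.34, adjusted p = 0.0173). MSC, among those that rose in Ujumqin, passed the filter through day 25 libraries alone, so it had to differ with age.

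Myogenic bHLH factors bind DNA with E proteins and work with MEF2 factors, of which 6 genes were tested. TCF3, which encodes the E proteins E12 and E47, was higher in Hulunbuir at day 25 by 0.80 ± 0.11 (edgeR adjusted p = 0.000693), with 10.9 to 15.3 FPKM in Ujumqin and 26.8 to 27.4 FPKM in Hulunbuir. The other 5 did not pass there. In both breeds 3 of the 6 fell with age and 0 rose, led by MEF2A at -1.97 ± 0.31 in Ujumqin (adjusted p = 0.000255) and -1.23 ± 0.30 in Hulunbuir (adjusted p = 0.00844).

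Of 14 genes known to restrain myogenic bHLH factors, 3 were higher and 5 lower in Hulunbuir at day 25 (median 0.05). HEYL, a Notch target, was higher by 1.29 ± 0.15 (edgeR adjusted p = 0.000325), and MSX1, a homeobox repressor of MYOD1, lower, at -0.96 ± 0.09 (adjusted p = 9.7e-05). With age in Ujumqin 9 rose and 2 fell, and in Hulunbuir 5 rose and 1 fell. MSTN, the secreted inhibitor of muscle growth, passed the filter through day 25 libraries alone and so had to differ with age. It had 0 counts in all 6 day 16 libraries and rose to at least 18.7-fold over the floor in Ujumqin (edgeR adjusted p = 0.00016) and at least 36.4-fold in Hulunbuir (adjusted p = 0.000285).

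Downstream genes of the muscle surface and of the contractile apparatus were counted in the same way. Of 23 skeletal muscle contractile and structural genes, 16 rose and 1 fell with age in Ujumqin (median 2.75), and 12 rose and 7 fell in Hulunbuir (median 1.11). The largest rise in both was that of MYBPC1, a myosin-binding protein of slow fibres, from 0 counts in Ujumqin to at least 287-fold over the floor, and by 8.05 ± 0.80 in Hulunbuir (edgeR adjusted p = 0.000118). SMYD1, which acts in heart and skeletal muscle, fell the most, by 2.09 ± 0.48 in Ujumqin (adjusted p = 0.00291) and by 3.05 ± 0.48 in Hulunbuir (adjusted p = 0.000633). Of 12 genes of the myoblast surface, fusion and synapse, 7 rose and 1 fell in Ujumqin and 5 rose and 3 fell in Hulunbuir, among them CHRNA1, an acetylcholine receptor subunit, by 6.90 ± 1.07 in Hulunbuir (adjusted p = 6e-04). MYBPC1 and CHRNA1 passed the filter through day 25 libraries alone, so they had to differ with age. MYH3, MYH8, MYL1, TNNI2, NEB and RYR1 of the contractile list also reached 1 FPKM at day 25 alone. So did CDH15, MYMK, CHRND, CHRNG and RAPSN of the surface, fusion and synapse list. The filter thus favoured a rise in these genes, and the counts and the contractile medians above include them. Of 11 heart muscle genes, 3 rose and 5 fell with age in Ujumqin (median -1.33), and 1 rose and 5 fell in Hulunbuir (median -1.74), and their part in the changes of the contractile list was not tested.

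Between breeds at day 25 the contractile list went the other way from PAX7 and MYF5 in more of its genes: 9 were lower and 4 higher in Hulunbuir. The median was -0.19 in the count fit and 0.16 in FPKM, where the median of all genes was 0.29. MYBPC2, of fast fibres, was lowest, at -1.56 ± 0.28 (edgeR adjusted p = 0.00248). MYLPF, the fast myosin regulatory light chain, named after its value was seen, had 183.5 to 224 FPKM in Ujumqin and 110.3 to 112 FPKM in Hulunbuir (-1.19 ± 0.10, adjusted p = 8.21e-05). SMYD1 was the most raised, at 1.50 ± 0.43 (adjusted p = 0.0213). All 13 of these called genes kept their sign in FPKM.

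Heart muscle shares contractile genes with skeletal muscle, and of 11 heart muscle genes 5 were higher and 3 lower in Hulunbuir at day 25. NPPA, the atrial natriuretic peptide gene, was higher by 2.96 ± 0.22 (edgeR adjusted p = 3.76e-05), and HAND1 was lower, at -1.28 ± 0.12 (adjusted p = 9.8e-05). The summed FPKM of the 11 was 254 to 313 in Ujumqin and 490 to 529 in Hulunbuir. Most of that sum was MYL2, with means of 196 FPKM in Ujumqin and 405 FPKM in Hulunbuir. Red cell genes moved further: 11 of 12 were higher, with sums of 1995 to 2507 FPKM in Ujumqin and 16426 to 19361 FPKM in Hulunbuir. Of 17 yolk sac, endoderm and liver genes 14 were higher. None of these markers was at 0 in a group at day 25, and their part in the breed values of the 9 genes was not tested.

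**Figure D4:**
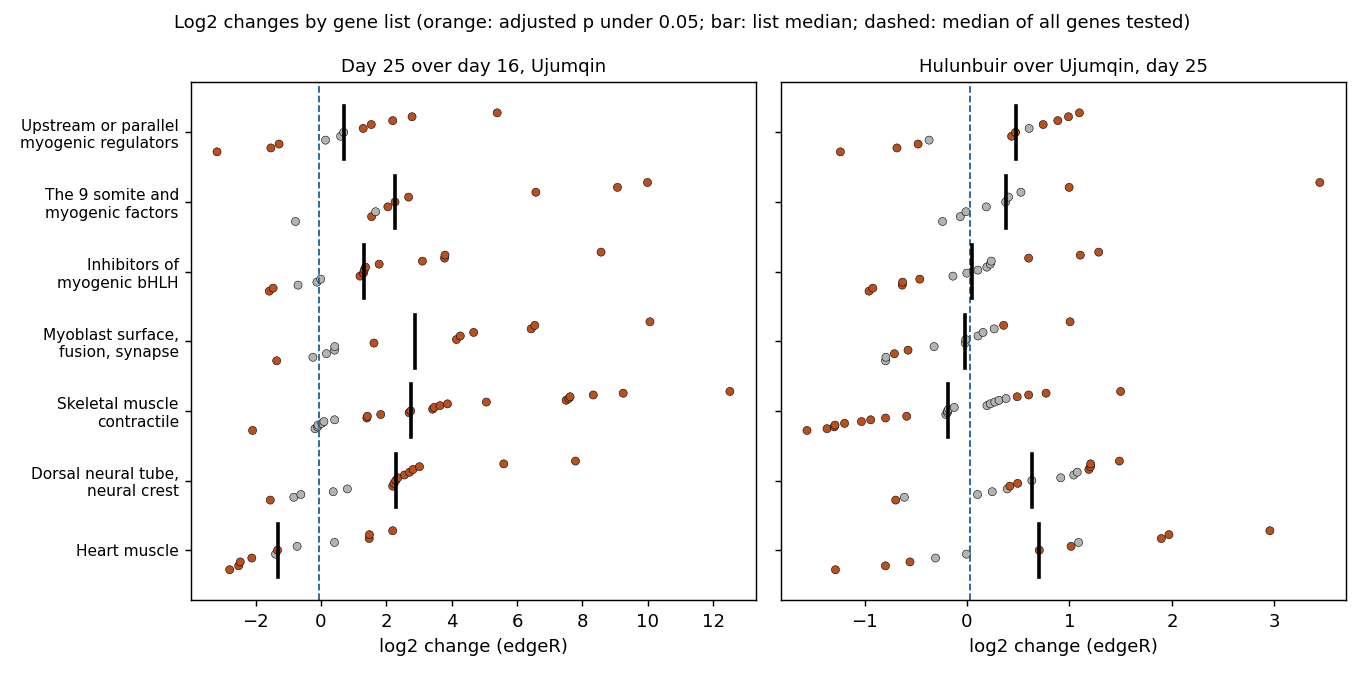
Log2 changes from edgeR (horizontal axis) of genes in 7 lists (rows) with age in Ujumqin (left) and between breeds at day 25 (right). Points are genes, orange where the adjusted p is under 0.05, black bars are list medians and dashed lines the median of all genes tested. With age the contractile list has a median of 2.75 and the 9 factors 2.27, and between breeds at day 25 the medians are -0.19 and 0.38.

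At day 16, 1 gene of all the lists passed between breeds, ITGA7, the laminin-binding integrin of muscle precursors, with 0.96 to 1.31 FPKM in Ujumqin and 7.86 to 8.56 FPKM in Hulunbuir (2.78 ± 0.23, edgeR adjusted p = 0.0261). Of the contractile genes, ACTC1, the cardiac actin that is also the early actin of skeletal muscle, had the highest mean level among those that did not pass (2.47 ± 0.44, adjusted p = 0.10), with 43.4 to 139 FPKM in Ujumqin and 381 to 811 FPKM in Hulunbuir. The contractile genes had a median estimate of 1.55 at day 16 and the heart muscle genes, of which 0 of 11 passed, one of 1.33. The 12 red cell genes, of which 0 passed, had a median of -3.57. The part of these tissues in the day 16 values was not tested.

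Neighbouring programmes of the somite gave values of their own. TBXT, the factor of the early mesoderm and notochord, fell with age by 3.20 ± 0.74 in Ujumqin (edgeR adjusted p = 0.0029) and by 4.42 ± 0.75 in Hulunbuir (adjusted p = 0.00105), while 0 of 7 presomitic and segmentation genes rose in either breed. TBXT passed the filter through day 16 libraries alone, so it had to differ with age. TNMD, a marker of tendon, which arises from the syndetome, had 0 counts in all day 16 libraries and at day 25 was lower in Hulunbuir, at -1.80 ± 0.24 (adjusted p = 0.000571). PAX1, of the sclerotome, was higher there by 0.66 ± 0.14 (adjusted p = 0.00557). Of 11 limb bud genes 0 were higher and 2 lower in Hulunbuir at day 25, with PRRX2, a homeobox factor of limb mesenchyme, at -1.05 ± 0.13 (adjusted p = 0.000389).

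Genes whose log2(FPKM + 1) followed a member most closely over the 12 libraries were found by Pearson's r, given as a description, since the libraries share depth, breed and above all age. PAX3 was closest to WDR35 (0.979), NEK4 (0.975) and MEOX1 (0.973), and TCF15 to ZNF521 (0.974), WDR35 (0.967) and MEOX1 (0.967). MEOX1 was closest to GPR19 (0.982), so WDR35 stood among the 3 closest genes of each of these 3 somite factors, and r was 0.978 with MEOX1. MYF5 was closest to FGF9 (0.987), MYOG to STMN4 (0.998), MYOD1 to ITIH3 (0.993), MYF6 to RPA3 (0.988), MEOX2 to KMT2E (0.967) and PAX7 to TTC5 (0.975). No myogenic factor was among the 3 closest genes of another.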

How the data were processed

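TRIzol was used to isolate total RNA, which was made into Illumina libraries, per the labels' protocols. Per the submitters' processing notes, cutadapt 1.9, FastQC and the Oar_v3.1 genome were used, while for the aligner, the counting and FPKM programs and the use of strand the sources used here give nothing. Per the file headers, the deposited table holds for each gene a count and an FPKM per library. The deposited counts are whole and unscaled, and the authors wrote the FPKM as 0.0001 where the count is 0.

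Genes that reached 1 FPKM in 3 or more of the 12 libraries (14595) were tested with edgeR 4.0.16 in R 4.3.3 on counts (TMM scaling, quasi-likelihood test, two-sided, Benjamini-Hochberg over all genes tested, threshold 0.05). Breeds were compared within the 6 libraries of an age, since the ages differ in spread, and ages and the interaction in 1 fit of 12. In an earlier analysis of these data, a spread shared over 12 libraries gave many false calls at day 16 on simulated counts. The age and interaction calls given here come from a fit with such a shared spread. An exact permutation test of 3 against 3 libraries cannot go below 0.10, so none is quoted. A fold against a group at 0 was taken against 3 counts per library.

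The members and gene lists were chosen with earlier results of these data known. The text names, per list and comparison, the called gene with the largest change in each direction, the uncalled gene with the highest mean, and the 3 genes most alike to each member, and a gene named otherwise is said to be. List genes without a match by symbol were not used here, and some results are not reported here. Libraries were grouped by the labels. Replicates differed by more than counting noise and were each counted. At day 16, same-numbered libraries of the breeds deviated together (r of 0.189, 0.302 and 0.356), so that the numbers pair them there, as a hint from the data, and at day 25 r was 0.0545, 0.0589 and 0.0315. Alternatives were DESeq2 1.42.0, limma 3.58.1 on log2(FPKM + 1) or log2(FPKM + 0.1) and on rescaled FPKM, voom, other size factors and filters, other sets of libraries, the replicate block, and leaving out each library.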

Additional observations from a re-analysis of the deposited data

How the results depend on the processing

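Of 760 alternative values of the 9 genes' changes, 671 kept their direction and side of the threshold, 36 passed it newly, 8 no longer passed and 45 turned sign, none of them a value that had passed. At day 16, where 3 genes passed between breeds, 2459 passed with 12 libraries in 1 fit, 1601 with DESeq2, 487 with voom, 293 with the replicate block, 0 with each limma setting and 0 to 200 when a library was left out (200 without Ujumqin day 16 replicate 3). With the block PAX7 was -0.10 there, with voom -0.48, and -0.65 to 1.30 when a library was left out, and MEOX2 -0.69 to 2.23. At day 25, 6716 genes passed, and 2440 with 12 libraries in 1 fit. The 2 members that passed became 1 with 12 libraries, 5 and 5 with limma (pseudocounts of 1 and 0.1), 6 on rescaled FPKM and 2 to 4 when a library was left out. In these 3 limma settings MYOG was 0.24, 0.26 and 0.34, MEOX1 0.30, 0.32 and 0.40, and TCF15 0.088, 0.095 and 0.19. MEOX1 was 0.00050 without a filter and -0.074 to 0.030 when a library was left out, and MYOG -0.16 to 0.0017. For age in Ujumqin 7 members became 4 on rescaled FPKM. In Hulunbuir 3 became 5 with each limma setting and 6 with voom, the additions being MYF5, PAX7 and, with voom, MEOX2. TCF15, at -0.01 there, was 0.013 with 6 libraries, 0.0100 with RLE size factors, 0.0102 with DESeq2, 0.26 and 0.30 with limma, 0.078 with voom, 0.13 with the block and -0.34 to 0.44 when a library was left out. PAX3 was then -0.23 to 1.53 and MEOX1 -0.30 to 0.93. For the interaction 0 members became 2 with DESeq2, 1 with limma and 0 to 4 when a library was left out, and the 2804 genes 1561 to 3337, the lower counts being those without Ujumqin day 25 replicate 2 (1618) or 3 (1597) or Hulunbuir day 25 replicate 1 (1561), 2 (1656) or 3 (1578). With limma on log2(FPKM + 1) the interaction was 0.10 for MYF5, 0.41 for MYF6 and 0.59 for MYOD1, with the smaller pseudocount 0.51 for MYOD1, and on rescaled FPKM 0.082 for MYF5, 0.45 for MYF6, 0.64 for MYOD1 and 0.014 for MEOX2. With a library left out it was -2.08 to 0.83 for MEOX2, -3.04 to 0.49 for MYOD1 and -0.11 to 5.42 for MYOG. The cause of these changes was not tested. The replicate block changed 3 more member calls to passing, PAX3 at day 25, MEOX2 with age in Ujumqin (adjusted p = 0.0192) and MYF5 with age in Hulunbuir. Low counts of PAX7, MYOD1, MYF6 and MYOG at day 16 limit what a change there can show.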
